A study of Homo sapiens with 18 samples.

Results

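The expression of 36 genes of DNA double-strand break repair, mismatch repair and the DNA damage checkpoint was examined in MDA-MB-231 cells, a triple-negative human breast cancer cell line with a mesenchymal profile. A gene was represented by the probe set that the array platform's gene table pairs with its symbol alone, and where several did, by the one with the highest mean over all arrays. This found 32 of the 36 genes, 20 of them with more than 1 probe set, among 19775 genes with a probe set in that table. BRCA2, RBBP8, FANCA and FANCD2 were not analysed here. All 32 were above the presence threshold, 3.14 on the log2 scale, on both arrays of at least 1 condition, as were 11193 genes in all.

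Cells were incubated for 16 hours in medium without serum in 6 conditions, each with 2 arrays used here. N epi and H epi received 10 µM epirubicin, an anthracycline that acts on topoisomerase II and DNA, at 20% oxygen (N, normoxia) or 1% oxygen (H, hypoxia). N tax and H tax received 50 µM paclitaxel, which stabilises microtubules, and H and N received no drug. RNA was read on the Affymetrix HG-U133 Plus 2.0 array, and levels are log2 GC-RMA values, so that a difference of 1 is a doubling. The cells are 1 line at 1 time point with 1 dose of each drug, and RNA per cell and the number of surviving cells cannot be told apart in such bulk samples.

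A DNA double-strand break can be resealed directly by end joining, in which the Ku proteins and the kinase DNA-PKcs hold the ends for ligation, or copied from a sister chromatid by homologous recombination, in which BRCA1, BARD1 and PALB2 take part. Homologous recombination is largely restricted to S and G2 phase, when a sister chromatid is available, and many of its genes are transcribed with the cell cycle. The kinases ATM and ATR sense breaks and stalled forks and, through CHEK2 and CHEK1, hold the cell cycle. Fanconi anemia proteins handle crosslinks, the MutS protein MSH6 recognises mispaired bases, and poly(ADP-ribose) polymerases mark broken strands.

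The share of probe sets above the threshold was 41.4% to 42.6% per array. Replicate arrays correlated at 0.9765 (N epi) to 0.9965 (N) over all probe sets tested, and the largest gap between replicates among the 32 genes was 1.81 for BLM in N epi. The ACTB control probe sets, whose 3' minus 5' difference follows RNA length, gave -0.31 to -0.21 on the epirubicin arrays. They gave 0.07 to 0.32 on the paclitaxel and H arrays, against -0.04 to -0.02 on the N arrays. Those of GAPDH did not differ in this way, at 0.42 to 0.48, 0.39 to 0.49 and 0.46 on the same groups of arrays. The part of the ACTB difference in the results was not tested. Of the markers of the line, VIM, CD44, AXL, MSN, CAV1, KRT18 and EGFR were present on 12 of 12 arrays and CDH1 and PGR on 0, while ERBB2 (8.03 to 8.53) and GATA3 (4.71 to 8.79), listed as low in this line, were present on all 12. Markers of blood were below the threshold, as were most of keratinocytes and hepatocytes, with KRT10 (12.04 to 13.05), TTR, APOA1 and, on 2 arrays, AFP as exceptions. Another 6 arrays, for which title and source name gave different drugs, were left out. Once they were added by source name, no gene of the 32 passed in any comparison. Added by title, they left 107 of the 112 differences that had passed still past the test.

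With either drug more of these genes were lower than higher. A gene was called when limma's adjusted p was below 0.05 in 1 fit of all 12 arrays. In N tax against N, 16 of 32 genes fell and 1 rose, against 15.0% lower and 8.92% higher over all genes, and the median log2 difference was -0.50 against -0.03 over all genes. In H tax against H, 13 fell and 1 rose, against 18.1% lower and 13.3% higher over all genes, with a median of -0.44. In N epi against N, 15 fell and 2 rose, and the background was 30.8% lower and 24.2% higher, with a median of -0.41 against -0.01 over all genes. In H epi against H, 15 fell and 6 rose, against 36.2% lower and 29.5% higher over all genes, with a median of -0.42. The share of members lower with paclitaxel (50% in N tax against N) thus stood farther above its background than that with epirubicin (46.9% in N epi against N). After a quantile normalization of the values, the all-gene median was 0.11 in N epi against N and 0.12 in H epi against H (-0.01 and -0.03 without it), and the members' medians were -0.18 and -0.10.

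**Figure D1:**
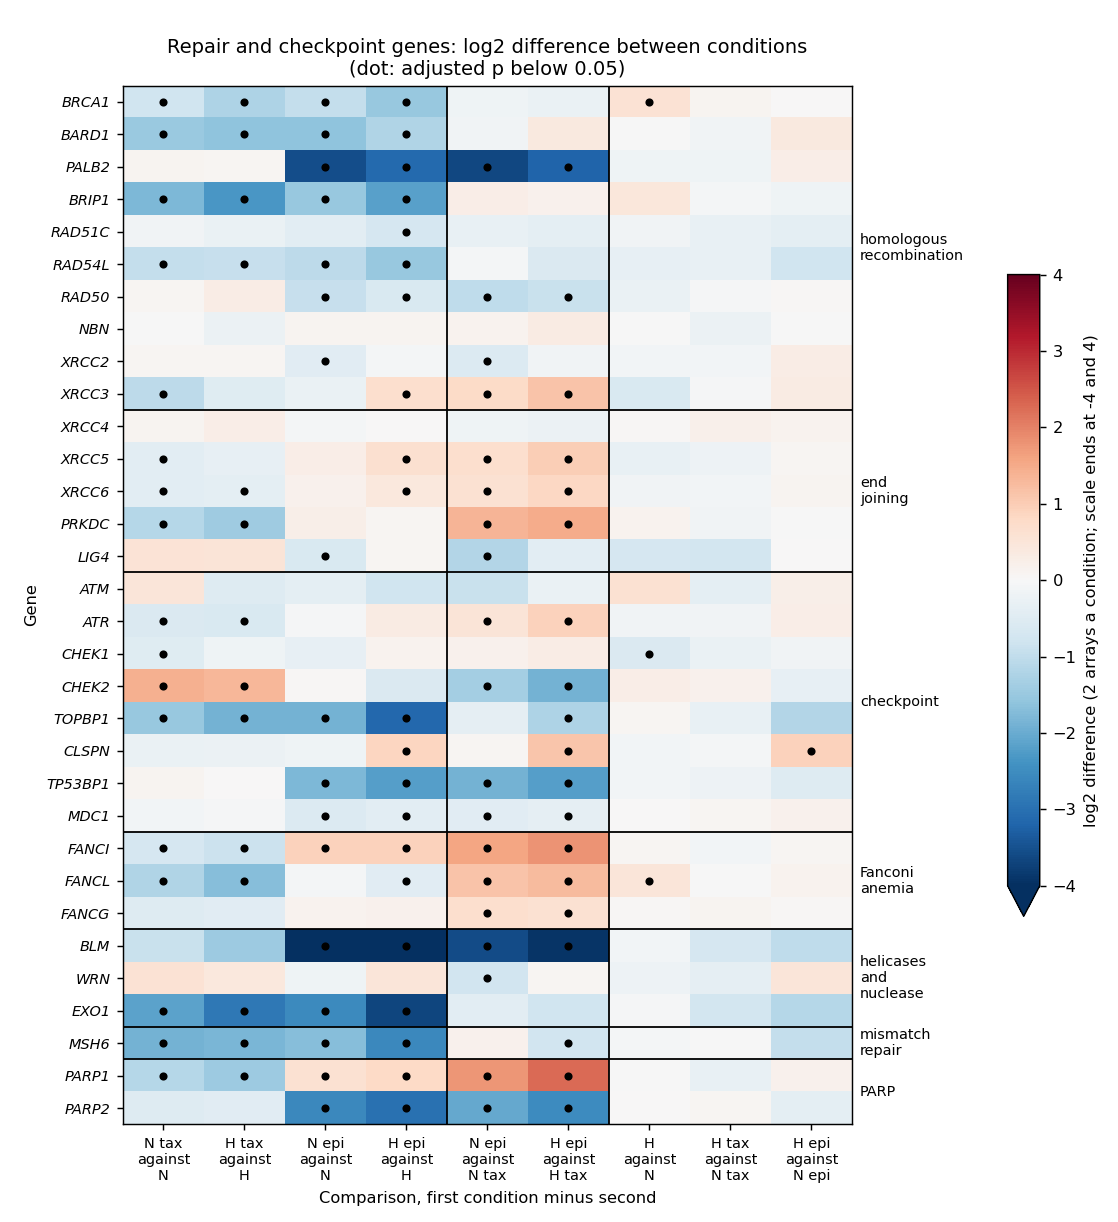
Each cell is the log2 difference, first condition minus second, of 1 of 32 genes (rows, ordered by role) in 1 of 9 comparisons (columns), in blue where lower and red where higher in the first condition, with a dot where limma's adjusted p was below 0.05. The 4 drug columns at the left hold rows of blue for EXO1, MSH6, TOPBP1 and BRIP1, of these 4 only the epirubicin columns hold dots for PALB2, BLM, TP53BP1 and PARP2, and the 3 oxygen columns at the right hold 4 dots in all.

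BRCA1, BARD1, BRIP1, RAD54L, TOPBP1, EXO1 and MSH6 fell in each of the 4 comparisons of a drug with its control. In these the N arrays serve both normoxic comparisons and the H arrays both hypoxic ones. The share of all genes that fell in all 4 was not counted. Promoters of 27 of the 32 genes were in the RefSeq table (GRCh38.p14, 250 bases before to 50 after the start), and NBN, XRCC5, PRKDC, FANCI and WRN were not. They were searched on both strands for 4 spellings of the E2F motif, TTTCCCGC, TTTCGCGC, TTTGCCGC and TTTGGCGC, and for the cell cycle homology region, TTTGAA or TTCGAA. An E2F spelling was in 6 of 27 members (22.2%) and in 3.31% of all 35114 promoters, and the 6 were TOPBP1, EXO1, MSH6, XRCC2, XRCC6 and CLSPN. The cell cycle homology region was in 4 of 27 (14.8%) and in 16.4% of all. The core of the hypoxia response element, ACGTG or GCGTG, was in 20 of 27 (74.1%) and in 48.4% of all. Of the 7 members that fell in all 4 drug comparisons, 3 held an E2F spelling. So did 2 of the 5 that rose in 1 or more. It was in 1 of the 12 that fell in 1 to 3 and rose in none, and in 0 of the 3 with no call. A link between the motifs and the falls was not tested. The 35114 promoters were not limited to genes above the presence threshold. A match is a string of letters in this window and was not tested for binding. The promoters below are those of members that fell in each drug comparison and held an E2F spelling or a cell cycle homology region, with CLSPN as the member with an E2F spelling that rose in 1 comparison and fell in none. Capitals mark the E2F spelling or, in BRIP1, the cell cycle homology region, hypoxia response cores are not marked, and all 5 are written 5′ to 3′ on the gene's strand.
EXO1, chr1:241847954-241848253, + strand: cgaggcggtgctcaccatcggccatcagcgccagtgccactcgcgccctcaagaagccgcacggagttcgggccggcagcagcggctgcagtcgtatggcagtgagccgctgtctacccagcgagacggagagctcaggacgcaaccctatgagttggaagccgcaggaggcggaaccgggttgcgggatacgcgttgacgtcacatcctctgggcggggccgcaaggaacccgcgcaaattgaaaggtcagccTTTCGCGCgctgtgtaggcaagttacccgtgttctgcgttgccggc
MSH6, chr2:47782895-47783194, + strand: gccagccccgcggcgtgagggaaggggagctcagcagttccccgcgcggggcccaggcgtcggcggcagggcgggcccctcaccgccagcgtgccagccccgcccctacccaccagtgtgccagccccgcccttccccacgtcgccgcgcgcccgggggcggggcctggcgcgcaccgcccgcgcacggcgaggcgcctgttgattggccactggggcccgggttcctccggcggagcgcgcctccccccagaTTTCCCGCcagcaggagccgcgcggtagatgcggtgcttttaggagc
TOPBP1, chr3:133661892-133662191, - strand: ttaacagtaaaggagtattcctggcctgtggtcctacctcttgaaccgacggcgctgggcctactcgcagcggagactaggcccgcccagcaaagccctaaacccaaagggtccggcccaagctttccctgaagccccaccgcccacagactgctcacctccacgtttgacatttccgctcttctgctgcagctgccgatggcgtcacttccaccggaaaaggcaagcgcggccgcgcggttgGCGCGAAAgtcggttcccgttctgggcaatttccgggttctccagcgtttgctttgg
BRIP1, chr17:61863479-61863778, - strand: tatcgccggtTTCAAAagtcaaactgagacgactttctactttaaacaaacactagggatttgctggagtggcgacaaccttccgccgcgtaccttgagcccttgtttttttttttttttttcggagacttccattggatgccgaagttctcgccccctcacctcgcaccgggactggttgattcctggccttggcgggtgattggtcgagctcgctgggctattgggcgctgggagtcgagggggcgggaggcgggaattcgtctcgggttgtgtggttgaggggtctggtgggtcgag
CLSPN, chr1:35769929-35770228, - strand: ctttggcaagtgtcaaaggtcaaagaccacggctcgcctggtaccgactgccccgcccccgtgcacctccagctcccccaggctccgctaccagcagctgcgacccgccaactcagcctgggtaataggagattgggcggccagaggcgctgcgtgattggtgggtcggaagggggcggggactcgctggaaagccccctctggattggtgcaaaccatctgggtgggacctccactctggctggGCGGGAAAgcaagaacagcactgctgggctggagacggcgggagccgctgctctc
The E2F spelling lay from position 5 to 12 after the start in EXO1, from 4 to 11 in MSH6, from -7 to 1 in TOPBP1 and from -5 to 3 in CLSPN, while BRIP1 held only the cell cycle homology region, from -240 to -235.

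Among homologous recombination genes, 7 of 10 fell in N epi against N and 5 of 10 in N tax against N, and none rose, where 30.8% and 15.0% of all genes fell. Under hypoxia 7 fell and 1 rose in H epi against H, and 4 fell in H tax against H, where 36.2% and 18.1% of all genes fell. PALB2, which bridges BRCA1 and BRCA2, had the largest difference of the role and was called with epirubicin only. It read 3.75 and 4.55 in H epi, 3.17 and 4.62 in N epi, 7.38 and 7.31 in H tax, 7.38 and 7.67 in N tax, against 6.95 and 7.59 in H and 7.18 and 7.68 in N. The 4 epirubicin arrays lay below every other array. PALB2 was 11.6-fold lower in N epi than in N (log2 -3.53 ± 0.47 SE, adjusted p = 0.000566) and 8.68-fold lower in H epi than in H (adjusted p = 0.000532), while in N tax it differed from N by 0.09. The 2 N epi arrays were far apart, and without the first or the second of them the log2 difference was -2.81 or -4.26, still past the test.

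BRIP1, a helicase that binds BRCA1, fell with either drug. Its levels were 7.58 and 7.36 in H epi, 7.52 and 7.78 in N epi, 7.12 and 7.49 in H tax, 7.32 and 7.45 in N tax, against 9.53 and 9.74 in H and 9.20 and 9.14 in N. No drug-treated array reached a control array. The fall was 3.46-fold in N tax against N (log2 -1.79 ± 0.16, adjusted p = 0.000365) and 2.88-fold in N epi against N (-1.52 ± 0.16, adjusted p = 0.000218), and under hypoxia 5.03-fold with paclitaxel and 4.49-fold with epirubicin.

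BARD1, the ring-finger partner of BRCA1, read 8.70 and 9.11 in H epi, 8.55 and 8.49 in N epi, 8.45 and 8.58 in H tax, 8.45 and 8.87 in N tax, against 10.01 and 10.22 in H and 10.24 and 10.02 in N. All 8 drug-treated arrays were below the 4 control arrays. BARD1 was lower by 2.77-fold in N tax than in N (adjusted p = 0.00132) and by 3.05-fold in N epi than in N (adjusted p = 0.000329). Its other 2 probe sets, tested on their own, gave -1.89 and -0.70 in N tax against N and -1.44 and -0.75 in N epi against N, and all 4 passed.

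BRCA1, the ubiquitin ligase that promotes end resection, read 7.71 and 7.54 in H epi, 7.69 and 7.54 in N epi, 7.99 and 7.81 in H tax, 7.87 and 7.68 in N tax, against 9.11 and 9.15 in H and 8.59 and 8.54 in N. The H arrays were the highest and all drug-treated arrays were low, whatever the oxygen level. The log2 difference was -0.79 ± 0.12 in N tax against N (adjusted p = 0.00319) and -0.95 ± 0.12 in N epi against N (adjusted p = 0.00052). In H tax against H it was -1.24 ± 0.12 (adjusted p = 0.000301), and in H epi against H -1.51 ± 0.12 (adjusted p = 2.938e-05).

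RAD54L, a DNA motor protein of recombination, read 6.30 and 5.32 in H epi, 6.60 and 6.60 in N epi, 6.18 and 6.61 in H tax, 6.55 and 6.82 in N tax, against 7.33 and 7.33 in H and 7.75 and 7.56 in N. Drug-treated and control arrays did not overlap. It fell by 1.05 on the log2 scale in N epi against N (adjusted p = 0.0156) and by 0.97 in N tax against N (adjusted p = 0.0437). The paclitaxel call was lost without any one of the 4 arrays compared (adjusted p = 0.0975 to 0.199), and that with epirubicin without the first array of N epi or N (0.0569 and 0.0823). In H tax against H it was -0.93 (adjusted p = 0.0421), which was also lost without any one array compared (0.0598 to 0.203), and in H epi against H it was -1.52 (adjusted p = 0.00187).

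XRCC3, which acts on recombination intermediates, was lower in N tax than in N and higher in H epi than in H. It read 5.52 and 5.43 in H epi, 5.19 and 5.08 in N epi, 4.03 and 4.66 in H tax, 4.40 and 4.37 in N tax, against 4.72 and 4.92 in H and 5.39 and 5.44 in N. Its values, from 4.03 to 5.52, were near the lower end of the scale. The epirubicin arrays were above the paclitaxel arrays at each oxygen level. XRCC3 was 2.04-fold lower in N tax than in N (log2 -1.03 ± 0.19, adjusted p = 0.0062) and 1.58-fold higher in H epi than in H (0.66 ± 0.19, adjusted p = 0.0144), the second not called without the first array of H epi or H (adjusted p = 0.0637 and 0.086). In N epi against N it differed by -0.28 (adjusted p = 0.242) and in H tax against H by -0.47 (adjusted p = 0.0948), and neither passed.

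Of the remaining recombination genes, RAD50, the coiled-coil arm of the MRE11 complex, was lower with epirubicin only, at 8.11 and 8.10 in N epi against 9.08 and 9.01 in N (log2 -0.94 ± 0.17, adjusted p = 0.00234). Its other 2 probe sets gave 0.62 and -0.13 there and did not pass, and the mean of all 3 gave -0.15 (adjusted p = 0.636). In H epi against H RAD50 differed by -0.61 (adjusted p = 0.0128), not called without the first H array or the second H epi array (adjusted p = 0.0796 and 0.0781). XRCC2, another recombination protein, was near the lower end of the scale at 4.22 to 4.997 and was called in N epi against N at an adjusted p of 0.0497, a call lost without any one of the 4 arrays compared (0.0618 to 0.245). RAD51C, which forms a complex with XRCC3, fell by 0.67 in H epi against H (adjusted p = 0.0364). That call was lost without the second array of H epi or H and for the mean of its probe sets. Its second probe set gave 0.15 in H epi against H (adjusted p = 0.558). That probe set fell with paclitaxel, by 0.71 in N tax against N (adjusted p = 0.0395) and by 1.08 in H tax against H (adjusted p = 0.00554). NBN, the third protein of the MRE11 complex, stayed between 10.21 and 10.68 on all 12 arrays and passed in no comparison, although 1 of its other probe sets gave 0.52 in N epi against N (adjusted p = 0.0188).

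**Figure D2:**
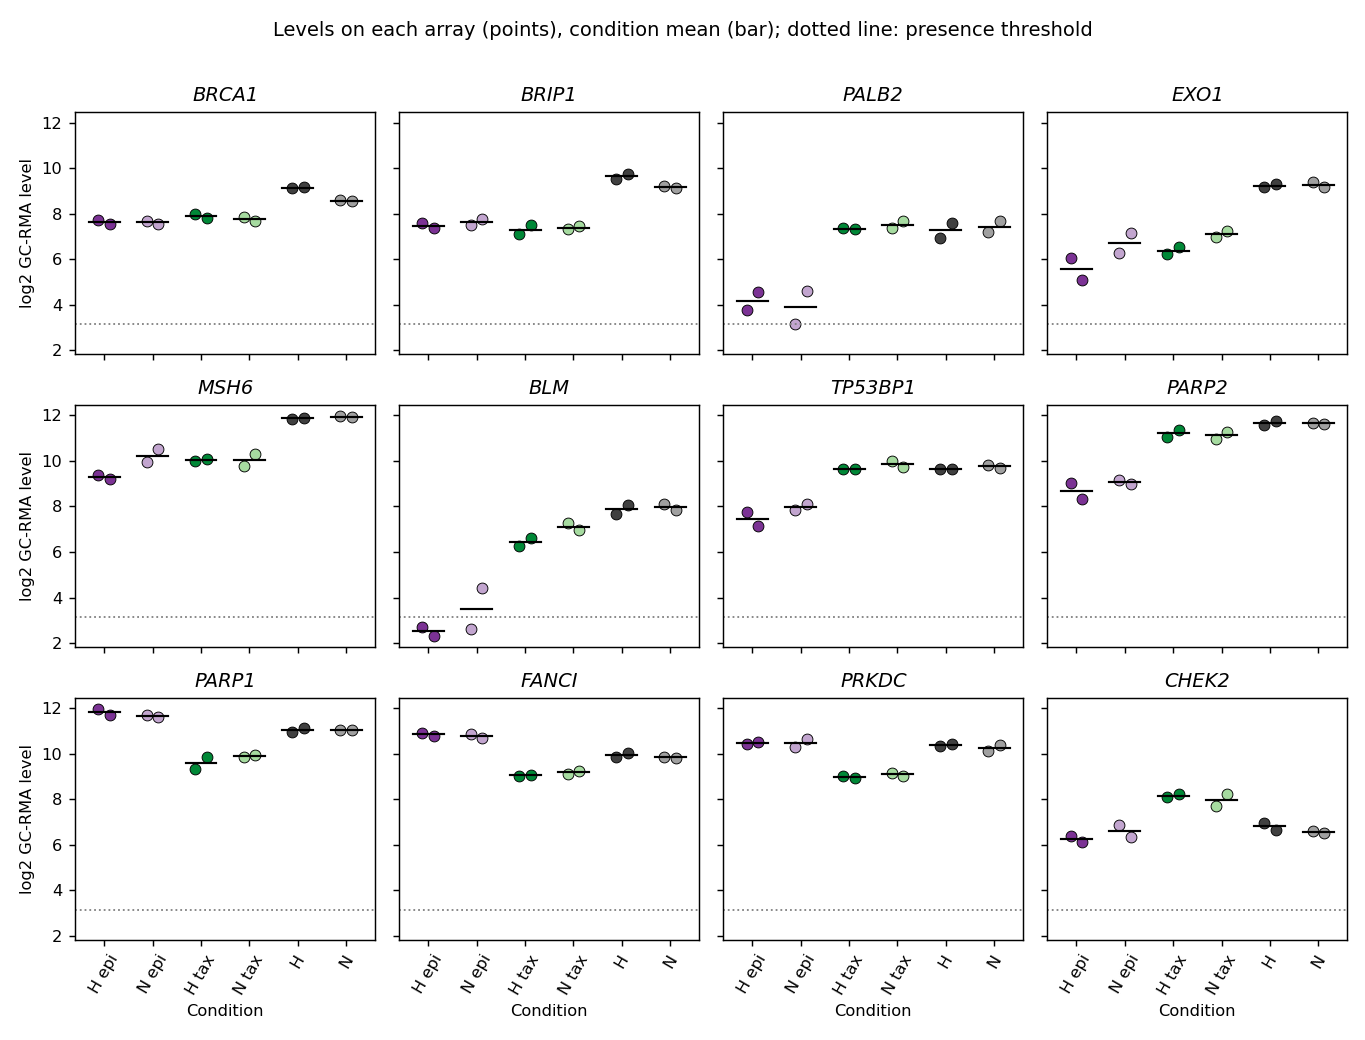
Each point is the log2 GC-RMA level of 1 gene on 1 array (2 arrays a condition), the bar is the mean of the condition and the dotted line the presence threshold, with H epi, N epi, H tax, N tax, H and N from left to right. BRCA1, BRIP1, EXO1 and MSH6 were low with both drugs, PALB2, BLM, TP53BP1 and PARP2 were lowest with epirubicin, PARP1 and FANCI were high with epirubicin and low with paclitaxel, PRKDC was low with paclitaxel and CHEK2 was high with it.

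Of 5 end joining genes, PRKDC, XRCC6 and XRCC5 fell in N tax against N and PRKDC and XRCC6 in H tax against H, where 15.0% and 18.1% of all genes fell. With epirubicin 1 fell in N epi against N (30.8% of all genes) and 2 rose in H epi against H (29.5%), counts near the background. PRKDC encodes DNA-PKcs, the kinase that docks on Ku at a DNA end. It read 10.40 and 10.50 in H epi, 10.31 and 10.63 in N epi, 9.01 and 8.90 in H tax, 9.16 and 9.02 in N tax, against 10.32 and 10.41 in H and 10.10 and 10.37 in N. The 4 paclitaxel arrays stood apart below the rest, and the epirubicin arrays overlapped the controls. PRKDC was 2.2-fold lower in N tax than in N (log2 -1.14 ± 0.15, adjusted p = 0.00131) and 2.65-fold lower in H tax than in H (-1.41 ± 0.15, adjusted p = 0.000341). Its second probe set gave -1.42 in N tax against N (adjusted p = 0.0037).

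XRCC6 and XRCC5 encode Ku70 and Ku80, which encircle the DNA end. XRCC6 read 14.06 and 14.03 in H epi, 13.91 and 13.95 in N epi, 13.15 and 13.30 in H tax, 13.30 and 13.35 in N tax, against 13.64 and 13.62 in H and 13.73 and 13.78 in N. XRCC5 read 13.39 and 13.27 in H epi, 13.26 and 13.21 in N epi, 12.27 and 12.42 in H tax, 12.43 and 12.67 in N tax, against 12.66 and 12.70 in H and 13.03 and 12.92 in N. For both, epirubicin arrays were the highest and paclitaxel arrays the lowest at each oxygen level. XRCC6 differed by -0.43 ± 0.10 in N tax against N (adjusted p = 0.0157) and by 0.42 ± 0.10 in H epi against H (adjusted p = 0.0054). XRCC5 differed by -0.42 ± 0.12 in N tax against N (adjusted p = 0.0366) and by 0.65 ± 0.12 in H epi against H (adjusted p = 0.00159). The paclitaxel calls were small and were lost without some single arrays. For XRCC6, leaving out any 1 of the 4 arrays in N tax against N gave adjusted p-values of 0.0519 to 0.0852, and its H tax against H call (-0.40) was lost without either H array or the first H tax array (0.0566 to 0.0698). For XRCC5, leaving out either N array or the first N tax array gave 0.0902 to 0.193. With a quantile normalization the rise of XRCC6 in H epi was 0.25 (adjusted p = 0.0556).

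LIG4, the ligase of end joining, read 6.16 and 6.03 in N epi, 7.49 and 7.01 in N tax, against 6.73 and 6.66 in N. At normoxia it was thus lowest with epirubicin. It differed by -0.60 ± 0.19 in N epi against N (adjusted p = 0.0259), a call lost without any 1 of the 4 arrays (0.0566 to 0.108) and at -0.12 after quantile normalization, and its second probe set gave -1.04 (adjusted p = 0.0126). Under hypoxia the difference was 0.08 in H epi against H (adjusted p = 0.732), where the H arrays read 5.98 and 6.06, and with paclitaxel it was 0.56 in N tax against N and 0.50 in H tax against H, neither past the test. XRCC4, the partner that stabilises LIG4, lay between 8.55 and 9.18 and passed in no comparison. However, 1 of its other probe sets gave 0.64 in N epi against N (adjusted p = 0.0487).

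Of 8 checkpoint genes, 3 fell and 1 rose in N tax against N, and 3 fell and none rose in N epi against N. The background was 15.0% lower and 8.92% higher for paclitaxel and 30.8% lower for epirubicin, near which the epirubicin count lies. TOPBP1, which switches on the ATR kinase, read 7.07 and 6.23 in H epi, 7.58 and 8.08 in N epi, 7.92 and 7.85 in H tax, 8.36 and 8.03 in N tax, against 9.78 and 9.79 in H and 9.75 and 9.68 in N. The controls were tight and all drug-treated arrays were below them, H epi farthest. TOPBP1 fell 2.88-fold in N tax against N (log2 -1.53 ± 0.27, adjusted p = 0.00555), 3.7-fold in N epi against N (-1.89 ± 0.27, adjusted p = 0.000812) and 8.79-fold in H epi against H (-3.14 ± 0.27, adjusted p = 3.688e-05).

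TP53BP1, a chromatin reader that shields DNA ends from resection, read 7.77 and 7.15 in H epi, 7.83 and 8.11 in N epi, 9.66 and 9.65 in H tax, 9.99 and 9.73 in N tax, against 9.65 and 9.65 in H and 9.81 and 9.71 in N. On this probe set only the epirubicin arrays were low. The fall was 3.45-fold in N epi against N (log2 -1.79 ± 0.20, adjusted p = 0.000281) and 4.57-fold in H epi against H (-2.19 ± 0.20, adjusted p = 4.703e-05). Its probe sets did not give 1 answer. One of the other 2 tested gave -1.37 in N epi against N (adjusted p = 0.0065) and the other -0.13 (adjusted p = 0.538), although that probe set was lower by 0.85 in H epi than in H (adjusted p = 0.00216). It also gave -0.59 in H tax against H (adjusted p = 0.03) and 0.76 in H against N (adjusted p = 0.0276).

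CHEK2, the effector kinase of ATM, was the only 1 of the 32 genes called higher with paclitaxel. It read 6.39 and 6.12 in H epi, 6.85 and 6.32 in N epi, 8.07 and 8.22 in H tax, 7.71 and 8.21 in N tax, against 6.97 and 6.66 in H and 6.58 and 6.52 in N. The 4 paclitaxel arrays lay above all 8 others. CHEK2 was 2.65-fold higher in N tax than in N (log2 1.41 ± 0.23, adjusted p = 0.00354) and 2.51-fold higher in H tax than in H (1.33 ± 0.23, adjusted p = 0.00316), and differed by 0.03 in N epi against N. CHEK1, the effector of ATR, moved the other way with paclitaxel, at 9.22 and 9.09 in N tax against 9.70 and 9.59 in N (-0.49 ± 0.14, adjusted p = 0.0346), a call lost without any 1 of the 4 arrays (0.0836 to 0.175).

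ATR, the kinase that senses exposed single-stranded DNA, read 9.01 and 8.96 in H epi, 8.78 and 8.68 in N epi, 8.17 and 7.95 in H tax, 8.38 and 8.03 in N tax, against 8.56 and 8.75 in H and 8.74 and 8.836 in N. Paclitaxel arrays were lowest at each oxygen level. It differed by -0.58 ± 0.15 in N tax against N (adjusted p = 0.0228) and by -0.60 ± 0.15 in H tax against H (adjusted p = 0.0159). Without either N array or the second N tax array the first was at 0.0831 to 0.124, and without the second array of H or H tax the second was at 0.0961 and 0.088. Both ATR calls were also lost in a fit of the compared conditions only and for the mean of its probe sets. MDC1, a scaffold on phosphorylated H2AX, fell by 0.56 in N epi against N (adjusted p = 0.00991), a call lost without the second N array. It fell by 0.41 in H epi against H (adjusted p = 0.031), a call lost without either H array or the second H epi array. Both MDC1 calls were also lost for the mean of its probe sets. ATM, the kinase of double-strand breaks, passed in no comparison, with levels of 8.40 to 9.77, and its 2 H tax arrays were 1.38 apart.

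CLSPN, the adaptor through which ATR reaches CHEK1, was close to the floor of its probe set. It read 4.54 and 4.84 in H epi, 3.76 and 3.76 in N epi, 3.65 and 3.54 in H tax, 3.59 and 3.76 in N tax, against 3.88 and 3.76 in H and 3.76 and 4.11 in N. Only the H epi arrays were raised, by 0.87 ± 0.15 against H (adjusted p = 0.00127). A second CLSPN probe set, also dim, gave -1.76 in N tax against N (adjusted p = 0.0021), and over the mean of its probe sets the H epi against H difference was 0.14 (adjusted p = 0.312).

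Of the 3 Fanconi anemia genes analysed, FANCI and FANCL passed against control. FANCI, which is ubiquitinated together with FANCD2 at a crosslink, read 10.90 and 10.77 in H epi, 10.85 and 10.67 in N epi, 9.02 and 9.07 in H tax, 9.09 and 9.25 in N tax, against 9.83 and 10.01 in H and 9.87 and 9.82 in N. The 3 treatments formed non-overlapping levels, epirubicin above control and paclitaxel below it. FANCI was 1.89-fold higher in N epi than in N (log2 0.91 ± 0.12, adjusted p = 0.000538) and 1.6-fold lower in N tax than in N (-0.67 ± 0.12, adjusted p = 0.00552), and in hypoxia it differed by 0.91 with epirubicin and -0.87 with paclitaxel, both past the test. Of its other 2 probe sets in N epi against N, 1 gave 0.63 (adjusted p = 0.0183) and 1 gave 0.20 (adjusted p = 0.174).

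FANCL, the ubiquitin ligase of the pathway, read 8.41 and 8.28 in H epi, 8.30 and 8.13 in N epi, 7.14 and 7.02 in H tax, 7.05 and 7.12 in N tax, against 8.74 and 8.83 in H and 8.38 and 8.20 in N. Every paclitaxel array was below all others. FANCL was 2.3-fold lower in N tax than in N (log2 -1.20 ± 0.12, adjusted p = 0.0005) and 3.27-fold lower in H tax than in H (-1.71 ± 0.12, adjusted p = 7.693e-05). In H epi against H it differed by -0.44 (adjusted p = 0.011), or by -0.40 (adjusted p = 0.0568) without the second H array and by -0.22 (adjusted p = 0.171) after quantile normalization. FANCG, a subunit of the core complex, lay between 10.34 and 11.38 and passed against neither control.

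BLM, the helicase that dissolves double Holliday junctions, gave the largest fall of all 32 genes. It read 2.71 and 2.32 in H epi, 2.61 and 4.42 in N epi, 6.25 and 6.60 in H tax, 7.25 and 6.95 in N tax, against 7.67 and 8.08 in H and 8.12 and 7.84 in N. Both H epi arrays and the first N epi array were under the presence threshold. BLM was at least 26.5-fold lower in H epi than in H, where the lower level is set at the threshold (adjusted p = 4.664e-05), and the difference in N epi against N was -4.46 ± 0.49 on the log2 scale (adjusted p = 0.000252). With 1 of the 2 N epi arrays under the threshold that size is uncertain, and it was -3.56 without the first and -5.36 without the second. With paclitaxel it differed by -0.88 in N tax against N and by -1.45 in H tax against H and did not pass. WRN, a related helicase, passed against neither control, with levels of 6.54 to 7.58.

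EXO1, the nuclease that resects breaks and excises mismatches, fell with either drug. It read 6.04 and 5.09 in H epi, 6.26 and 7.16 in N epi, 6.22 and 6.53 in H tax, 6.9955 and 7.24 in N tax, against 9.15 and 9.30 in H and 9.39 and 9.15 in N. Every drug-treated array was below every control array. The fall was 4.45-fold in N tax against N (log2 -2.15 ± 0.35, adjusted p = 0.0039), 5.9-fold in N epi against N (-2.56 ± 0.35, adjusted p = 0.000671), 7.24-fold in H tax against H (adjusted p = 0.000757) and 12.7-fold in H epi against H (adjusted p = 5.888e-05).

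MSH6 was the 1 mismatch repair gene of the set. It read 9.36 and 9.20 in H epi, 9.94 and 10.51 in N epi, 10.01 and 10.07 in H tax, 9.79 and 10.31 in N tax, against 11.83 and 11.89 in H and 11.97 and 11.91 in N. The 4 control arrays lay close together and every treated array was below them. MSH6 fell 3.71-fold in N tax against N (log2 -1.89 ± 0.21, adjusted p = 0.000794), 3.28-fold in N epi against N (-1.71 ± 0.21, adjusted p = 0.00043) and 5.98-fold in H epi against H (-2.58 ± 0.21, adjusted p = 3.057e-05), and its second probe set gave -2.10 and -1.63 in the normoxic comparisons, both past the test.

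The poly(ADP-ribose) polymerases PARP1 and PARP2, which bind strand breaks and recruit repair factors, went apart. PARP1 read 11.97 and 11.70 in H epi, 11.70 and 11.62 in N epi, 9.32 and 9.84 in H tax, 9.83 and 9.95 in N tax, against 10.95 and 11.12 in H and 11.03 and 11.04 in N. Epirubicin arrays were above the controls and paclitaxel arrays below them. PARP1 was 2.22-fold lower in N tax than in N (log2 -1.15 ± 0.18, adjusted p = 0.0029) and 1.54-fold higher in N epi than in N (0.62 ± 0.18, adjusted p = 0.0177). The rise in N epi was not called without the first N epi array or either N array (adjusted p = 0.0703 to 0.0727), whereas that in H epi against H (0.80 ± 0.18, adjusted p = 0.00412) was called without any 1 array.

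PARP2 read 9.04 and 8.31 in H epi, 9.14 and 9.0003 in N epi, 11.06 and 11.35 in H tax, 10.96 and 11.27 in N tax, against 11.55 and 11.75 in H and 11.67 and 11.60 in N. The 4 epirubicin arrays lay below all others. It fell 5.93-fold in N epi against N (log2 -2.57 ± 0.23, adjusted p = 0.000116) and 7.85-fold in H epi against H (-2.97 ± 0.23, adjusted p = 2.513e-05), and its other 2 probe sets gave -2.46 and -2.33 in N epi against N. With paclitaxel it differed by -0.52 in N tax against N and did not pass, while 1 of the other probe sets passed at -0.64 in N tax against N (adjusted p = 0.0315) and at -0.58 in H tax against H (adjusted p = 0.036).

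The drugs were also set against each other at the same oxygen level, a comparison with no control array in it, at their own doses. In N epi against N tax, 9 genes were higher and 10 lower, against 30.3% and 33.7% of all genes. In H epi against H tax, 10 were higher and 9 lower, against 33.0% and 37.3% of all genes. Counts of this size are near the background. By role, 3 of 5 end joining genes were higher with epirubicin in either comparison, namely XRCC5, XRCC6 and PRKDC, and LIG4 was lower in N epi than in N tax (log2 -1.16 ± 0.19, adjusted p = 0.000895). PARP1 was 3.41-fold higher in N epi than in N tax (log2 1.77 ± 0.18, adjusted p = 8.97e-05) and FANCI 3.01-fold higher (1.59 ± 0.12, adjusted p = 2.767e-05). PALB2 was 12.4-fold lower in N epi than in N tax (-3.63 ± 0.47, adjusted p = 0.000296) and CHEK2 differed by -1.37 ± 0.23 (adjusted p = 0.000991). For the recombination genes low with both drugs, the difference between drugs did not pass, with 95% intervals in N epi against N tax of -0.45 to 0.12 for BRCA1, -0.57 to 0.29 for BARD1 and -0.11 to 0.64 for BRIP1. After quantile normalization the members' median changed sign, from -0.15 to 0.07 in N epi against N tax and from -0.20 to 0.23 in H epi against H tax, with all-gene medians of 0.13 and 0.14.

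**Figure D3:**
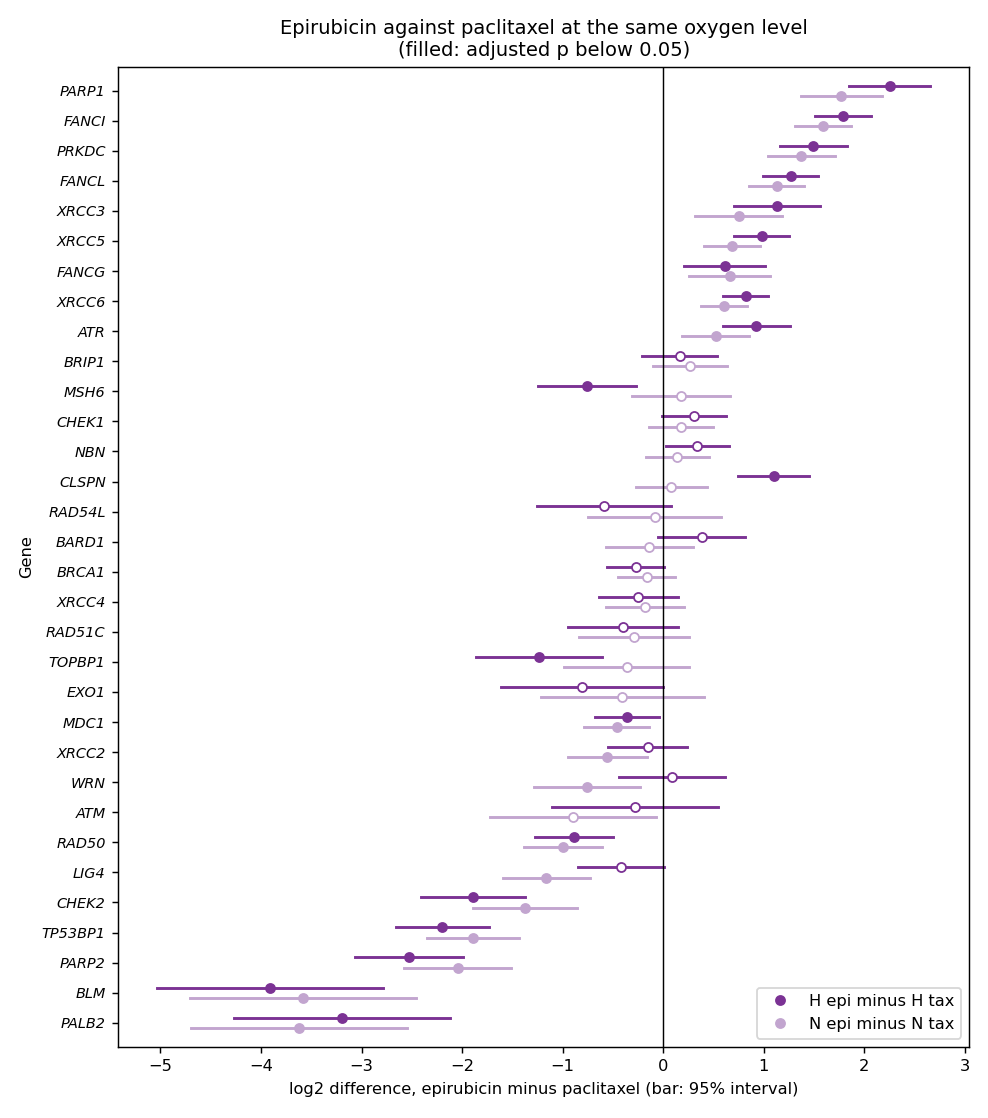
Points are the log2 difference, epirubicin minus paclitaxel, of 32 genes at 1% oxygen (H epi minus H tax, upper point of each row) and at 20% oxygen (N epi minus N tax, lower point), bars are 95% intervals of the limma fit and filled points have an adjusted p below 0.05. PARP1, FANCI, PRKDC and FANCL stand at the top and PALB2, BLM, PARP2, TP53BP1 and CHEK2 at the bottom.

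In H against N, 2 of 32 genes rose and 1 fell, near the background of 4.26% and 5.75% of all genes. BRCA1 was higher, at 9.11 and 9.15 in H against 8.59 and 8.54 in N (log2 0.57 ± 0.12, adjusted p = 0.026), and FANCL was higher, at 8.74 and 8.83 in H against 8.38 and 8.20 in N (0.50 ± 0.12, adjusted p = 0.0364). CHEK1 was lower, at 8.90 and 9.24 in H against 9.70 and 9.59 in N (-0.57 ± 0.14, adjusted p = 0.0369). The groups of each did not overlap, but the BRCA1 and FANCL calls were lost without any 1 of the 4 arrays (adjusted p = 0.0938 to 0.151 and 0.0837 to 0.22) and the CHEK1 call without either N array or the first H array (0.13 to 0.219). In H tax against N tax no gene passed, against 0.992% higher and 0.259% lower of all genes. There 1 member had an unadjusted p below 0.05, as had 3019 of the 24151 probe sets tested. In H epi against N epi, CLSPN rose and none fell, against 0.214% and 1.48% of all genes (log2 0.94 ± 0.15, adjusted p = 0.0355, or 0.0729 and 0.086 without the second array of N epi or H epi). With the unassigned arrays added by title that difference was 0.61 (adjusted p = 0.0683).

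The hypoxia effect itself was compared between treatments with 3 interaction terms. For paclitaxel against control no member passed, and of all genes 0.0357% were higher and 0.0536% lower. There 3 members had an unadjusted p below 0.05, as had 1913 of the 24151 probe sets tested. For epirubicin against paclitaxel no member passed, and 0.0983% of all genes were higher and 0.750% lower. There 4 members had an unadjusted p below 0.05, as had 3413 of the 24151 probe sets tested. For epirubicin against control, BRCA1, BRIP1, XRCC3, LIG4, CHEK1, TOPBP1, CLSPN and MSH6 had an unadjusted p below 0.05, as had 4972 of all 24151 probe sets tested. Of the members 1, CLSPN, passed with a difference of 1.05 (adjusted p = 0.0398), against 1.56% higher and 2.52% lower of all genes. That call was lost without any 1 array of H or N or the second array of H epi or N epi (adjusted p = 0.0637 to 0.135), and was 0.68 (adjusted p = 0.102) with the unassigned arrays added by title.

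Other genes of the same pathways, from lists drawn up for each, were read in N epi against N, where 30.8% of all genes fell and 24.2% rose. There 13 of 24 other homologous recombination genes fell and 3 rose, with FIGNL1 (-3.01) and MCM9 (-2.50) the largest falls and RAD51AP1 (1.17) and MRE11 (0.71), the nuclease beside RAD50, the largest rises. Of 34 other checkpoint and signaling genes 15 fell and 5 rose, with MAD2L2 (0.87) and ABRAXAS1 (0.53) the largest rises. The largest falls were PPM1D (-3.73 ± 1.16 SE), a phosphatase that ends the damage signal, and WEE1 (-3.38 ± 0.80), the kinase that restrains CDK1. Both had wide standard errors. Of 12 other Fanconi anemia genes 5 fell and 2 rose, with ERCC4 (-3.15) and FANCM (-2.17) lowest and FAAP20 (1.71) and CENPX (0.58) highest. Among 8 other mismatch repair genes 3 fell and 1 rose, with RFC1 (-2.54) and PMS1 (-0.68) falling and POLD1 (0.75) rising. Of 7 other end joining genes 3 fell and 2 rose, with DCLRE1C, the Artemis nuclease, at -0.99 and POLL at -0.56, and PAXX at 1.13 and APTX at 0.49. Of 6 other helicase genes none fell and 3 rose, RECQL4 (0.59) and RTEL1 (0.50) most.

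The excision pathways, which act on single bases and bulky adducts, were set beside these. Nucleotide excision repair had more rises than falls in N epi against N, 7 against 4 of 22, with ERCC2 (1.89), a helicase of TFIIH, and ERCC8 (1.28) highest and ERCC4 (-3.15) and CDK7 (-2.32) lowest. Base excision repair had 6 falls and 3 rises of 18, with NEIL3 (-3.37) and TDG (-1.83) lowest and UNG (1.28) and SMUG1 (1.02), which both remove uracil, highest. In N tax against N, where 15.0% of all genes fell and 8.92% rose, these lists gave 1 rise and 2 falls of 22 and 1 rise and 3 falls of 18. There 5 of the 24 other homologous recombination genes fell, and 4 of the 8 other mismatch repair genes.

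Cell cycle genes were also read. In N tax against N, 24 of 26 S phase genes fell and none rose (median -1.67). There 4 of 28 G2 and mitosis genes fell and 2 rose (median -0.01), against 15.0% lower and 8.92% higher over all genes. In N epi against N, 10 of 26 S phase genes fell and 2 rose (median -0.05). There 16 of 28 G2 and mitosis genes fell and 1 rose (median -0.82), against 30.8% lower and 24.2% higher over all genes. In H tax against H, S phase genes had 24 falls and no rise, and G2 and mitosis genes 9 rises and 4 falls. Over all genes 18.1% fell and 13.3% rose there. In H epi against H the counts were 8 falls and 6 rises, and 15 falls and 3 rises, against 36.2% lower and 29.5% higher over all genes. The S phase falls with epirubicin were thus near the background. In H against N, none of the 26 S phase genes passed and 9 of 28 G2 and mitosis genes fell, against 5.75% of all genes. The part of these shifts in the values of the repair genes was not tested.

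**Figure D4:**
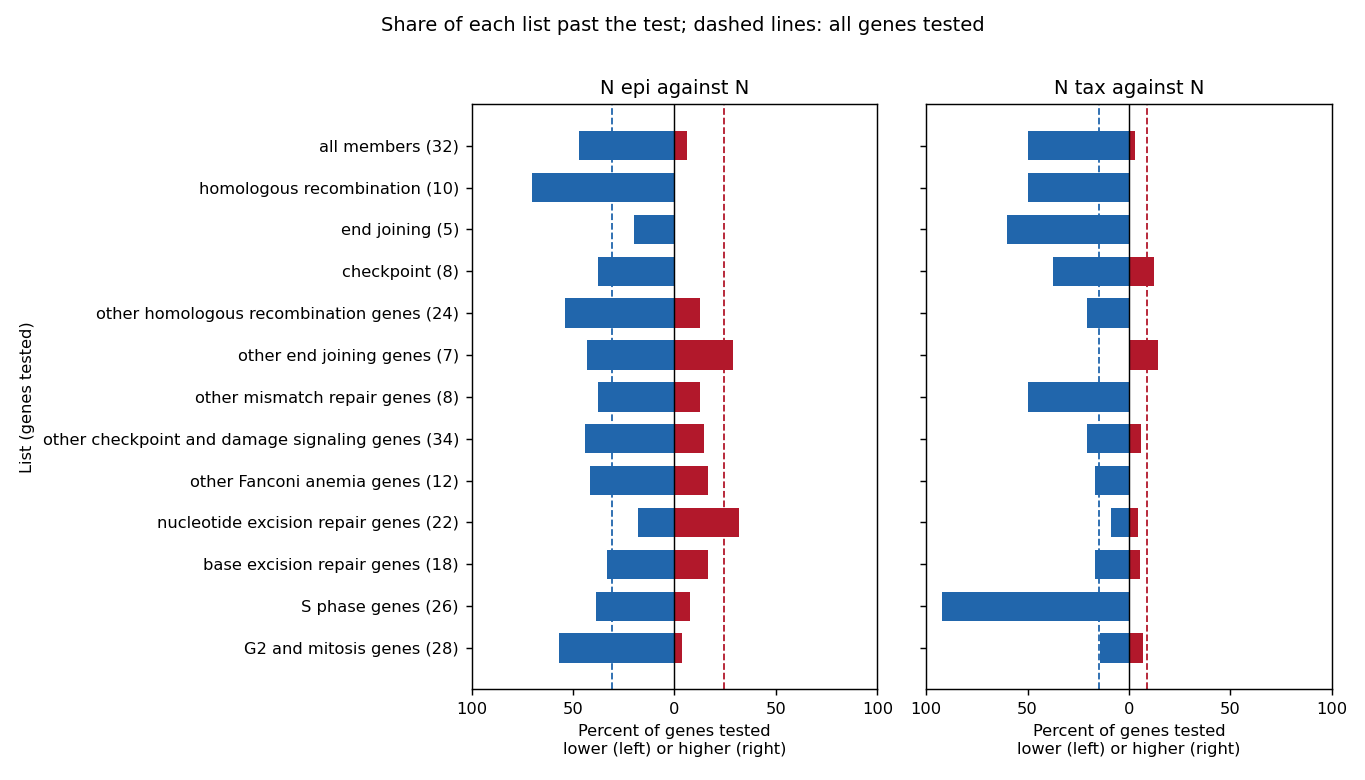
Bars give the percent of each list's tested genes (number in brackets) that were lower (left, blue) or higher (right, red) in N epi against N (left panel) and in N tax against N (right panel), and dashed lines give the same over all 11193 genes. Homologous recombination members reach 70% lower with epirubicin, and S phase genes reach 92.3% lower with paclitaxel.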

How the data were processed

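Expression was measured in 18 RNA samples of MDA-MB-231 cells on Affymetrix HG-U133 Plus 2.0 arrays. The deposited values are log2 GC-RMA values made by the authors in R, with a background correction by probe GC content, a normalization across arrays and 1 value per probe set. The methods name an AffyProbeMiner chip definition, while the probe set names in the table are the standard ones. Arrays give no read depth, and their number limits the precision.

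Conditions were taken from the labels. For 6 arrays, titled as replicate 3, title and source name disagree on the drug, so these were unassigned and 12 were used. The methods describe the replicates as independent experiments. The replicate numbers were not taken as pairs, since deviations correlated above 0.1 in 3 of 15 pairs of conditions. Probe sets were tested when above the study's presence threshold (3.14 as log2) on the 2 arrays of any condition. This left 24151 of 54613, without 62 control probe sets. Of the 54613, 41091 were paired with 1 symbol, 1801 with several and 11721 were not listed. For all-gene counts, 11193 genes were represented by their highest probe set.

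Differences were tested with limma 3.58.1 (R 4.3.3) in 1 fit of 12 arrays with 6 residual degrees of freedom, as a two-sided test, and p-values were adjusted by Benjamini-Hochberg across those 24151 at a threshold of 0.05. The test was also run on simulated data. No further normalization was applied, and a gene below the threshold on both arrays of a condition was given as a lower bound.

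The genes, the pathway lists and the motifs were chosen with earlier results of these data known. Array values were given for up to 5 genes a role with the largest difference past the test in a drug or oxygen comparison, for genes past it in opposite directions with the drugs, and for the gene whose hypoxia effect differed. Others named beside them complete the 32. Of each other list, the 2 largest rises and 2 largest falls in N epi against N were named. Alternatives were a replicate block, the unassigned arrays placed by either label, leaving out each array, the presence filter, quantile normalization, median centring, a trended and robust variance, fits of the compared conditions only, and other choices of probe set.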

Additional observations from a re-analysis of the deposited data

Results flagged for a closer look

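CLSPN was singled out because its hypoxia effect differed between treatments by a test of the difference itself. The interaction of hypoxia with epirubicin against control was 1.05 on the log2 scale (limma, adjusted p = 0.0398), with levels of 4.54 and 4.84 in H epi and 3.76 and 3.76 in N epi, against 3.88 and 3.76 in H and 3.76 and 4.11 in N. It rests on a dim probe set, and over the mean of the gene's probe sets it was 0.17 (adjusted p = 0.596). With the unassigned arrays added by title it was 0.68 (adjusted p = 0.102), and aside from the addition by source name 12 of 18 alternatives ended the call.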

How the results depend on the processing

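With the unassigned arrays added by source name, no gene of the 32 passed in any of the 12 comparisons (0 calls, against 112 called values without them), and FANCI in N tax against N (0.19), XRCC6 in H tax against H (0.0046), FANCL in H epi against H (0.17), and TOPBP1 and MSH6 in H epi against H tax (0.11 and 0.20) turned direction. With the same arrays added by title, 107 of 112 called values kept their side of the threshold and 5 did not, and the counts of genes were 5 in H against N (3 without them), 1 in H tax against N tax (0), 3 in H epi against N epi (1) and 4 in the epirubicin interaction against control (1). The count for H against N was 1 without a presence filter and 1 for the mean of all probe sets. That for H epi against N epi was 0 with a replicate block, with no filter, in a fit of its own conditions and for the mean of probe sets, and 2 with quantile normalization or a trended variance. That for the epirubicin interaction was 0 with a replicate block, no filter, a trended variance, its own conditions or the mean of probe sets. The replicate block kept 103 of 112 called values past the threshold, and those it did not keep were RAD54L (adjusted p = 0.0607), XRCC5 (0.0514) and CHEK1 (0.05) in N tax against N, RAD54L (0.0583) in H tax against H, XRCC2 (0.061) in N epi against N, MDC1 (0.0625) in H epi against H tax, CHEK1 (0.0557) in H against N, and CLSPN in H epi against N epi (0.0564) and in the epirubicin interaction (0.052). Leaving out 1 array gave 12 to 20 genes in N tax against N, 13 to 18 in N epi against N, 11 to 14 in H tax against H, 18 to 22 in H epi against H, 15 to 20 in N epi against N tax, 17 to 24 in H epi against H tax, 0 to 5 in H against N, 0 to 1 in H tax against N tax, 0 to 5 in H epi against N epi, and 0 to 1, 0 to 4 and 0 to 2 in the interactions for paclitaxel, for epirubicin and between drugs. Aside from the source name arrays, 12 of 17 calls in N tax against N and 11 of 17 in N epi against N passed under every alternative, and 0 of the oxygen calls did. The cause of these changes was not tested.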

Other observations

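The 6 arrays in no condition gave the following values, named here by their titles. EXO1 read 5.36 on the array titled H epi, 6.33 on N epi, 6.60 on H tax and 6.80 on N tax, against 8.86 on H and 8.99 on N. PALB2 read 2.57 on the array titled H epi, 4.55 on N epi, 6.98 on H tax and 7.50 on N tax, against 6.73 on H and 7.58 on N. CHEK2 read 6.23, 6.38, 7.96 and 7.94 on the arrays titled H epi, N epi, H tax and N tax, against 6.78 on H and 6.48 on N. CLSPN read 3.87 on the array titled H epi and 3.92 on N epi.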
